A study of Mus musculus with 3 samples.

Results

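Meis1 encodes a homeodomain transcription factor that binds DNA together with PBX and HOX proteins, is needed to maintain hematopoietic stem cells and is a known partner of HOXA9 in leukemia. The Meis1 locus was taken as the 300 kb of mouse chromosome 11 from 18700000 to 19000000 (build mm9), in which Meis1 lies at about 18.78 to 18.92 Mb, and its members were all deposited regions of H3K27ac and H3K4me1 that overlapped this window. There were 76 H3K27ac members of 93413 H3K27ac regions in the genome and 45 H3K4me1 members of 155027 H3K4me1 regions. The locus was selected on the data themselves, because its acetylated regions joined into the tenth largest domain of H3K27ac, so the amount of H3K27ac here is a description and not a finding.

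The cells were hematopoietic stem cells of C57BL/6 mice aged 24 months, purified from bone marrow as SP-KSL-CD150+ cells, a gate that keeps dye-excluding primitive cells with c-Kit and Sca-1, without lineage markers and with CD150. Chromatin from 50000 to 100000 primary cells was immunoprecipitated with an antibody to H3K27ac or to H3K4me1, with 1 library for each mark and 1 input library that was not analysed here. Both marks came from the same biological replicate, which leaves every difference below without a replicate check, and with no second condition to test no p-value is given. Peak lists hold no marker expression, and the identity of the sorted cells could not be checked in them.

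H3K27ac is an acetylation of histone H3 found at active promoters and active enhancers. H3K4me1 is a methylation typical of enhancers, active or primed, and is usually low at the centre of an active promoter, where H3K4 carries more methyl groups. Genes that define a cell type often lie in long clusters of acetylated enhancers.

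Meis1 is transcribed from the minus strand, so its start is at the upper end of the span and its last exons at the lower end. In the RefSeq gene table, which is on build GRCm38.p6, Meis1 is 139.2 kb long, against the 140 kb of the approximate mm9 span. The next gene below Meis1 in that table is the long non-coding RNA 8430419K02Rik, also on the minus strand, so that its start faces the lower end of Meis1. The long non-coding RNA Gm16141 overlaps Meis1 in the table on the opposite strand. The nearest protein-coding genes are Etaa1 below and Spred2 above. No mm9 annotation was used here, and the ends of Meis1 are known only to about 10 kb, so regions are placed at an end of the gene and not at a base.

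The promoter sequences of Meis1 and of 8430419K02Rik are shown because the strongest acetylation lay toward the ends of Meis1 where these genes start. Each runs from 250 bases before the start to 50 bases after it, on the minus strand, and comes from RefSeq at GRCm38.p6 positions chr11:19018920-19019219 and chr11:18877561-18877860, which are not on the scale of the mm9 positions used for the marks. RefSeq gives 3 distinct promoter sequences for 8430419K02Rik, of which only the first listed is shown and searched, and 1 for Meis1. Capitals mark the motifs found.
Meis1: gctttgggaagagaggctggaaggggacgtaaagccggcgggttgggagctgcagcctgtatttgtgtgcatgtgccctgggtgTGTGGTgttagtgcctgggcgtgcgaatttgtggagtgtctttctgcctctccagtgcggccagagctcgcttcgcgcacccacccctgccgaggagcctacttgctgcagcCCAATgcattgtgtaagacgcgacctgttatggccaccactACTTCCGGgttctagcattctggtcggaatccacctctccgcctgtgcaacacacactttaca
8430419K02Rik: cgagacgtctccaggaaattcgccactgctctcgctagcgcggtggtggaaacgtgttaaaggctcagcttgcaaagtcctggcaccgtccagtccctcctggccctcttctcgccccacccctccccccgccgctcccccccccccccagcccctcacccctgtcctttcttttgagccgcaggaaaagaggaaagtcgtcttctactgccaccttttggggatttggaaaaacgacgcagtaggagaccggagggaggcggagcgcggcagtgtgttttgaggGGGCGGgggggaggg

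Both promoters lay above the median in G and C. The Meis1 promoter was 58.3% G or C with 15 CpG dinucleotides and the 8430419K02Rik promoter 63.3% with 20. The medians were 53% and 7 over 32544 distinct promoters of this length. At least as high a G or C content was held by 33.9% of promoters for Meis1 and 21.8% for 8430419K02Rik. At least as many CpG dinucleotides were held by 34.9% and 26.7%. On both strands, 7 motifs were searched, which were chosen with the sequences in view and did not overlap in the matches. In Meis1 the RUNX core TGTGGT began at position -166 from the start, a CCAAT box at -54 and, on the opposite strand, the ETS motif CCGGAAGT at -13. The share of all promoters that hold these letters was 16.7% for the RUNX core, 37.4% for the CCAAT box and 3.92% for the ETS motif. The 8430419K02Rik promoter shown held the GC box GGGCGG at 36 from the start, as 35.9% of promoters do. Neither of the promoters shown held the MEIS core TGACAG (19.1% of all promoters), the GATA motif GATAAG (7.32%) or the TATA box TATAAA (13.6%). The other promoters of 8430419K02Rik were not searched. A match describes the letters only, and no binding was measured.

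H3K27ac and H3K4me1 were laid out differently along Meis1. H3K4me1 filled the body of the gene in long, nearly continuous blocks, covering 87.6% of the 140 kb span, while H3K27ac covered 28.7% of it in many short regions. At the ends of the gene lay all 4 H3K27ac summits that reached 10-fold, together with 6 of the 8 H3K27ac regions of 2 kb or more, and every stretch of 1 kb or more in the domain without H3K4me1. The other 2 of the 8, from 18847439 (2271 bp) and from 18861930 (2191 bp), lay inside long H3K4me1 blocks. In bins of 20 kb, H3K4me1 covered 91.9 to 100% of each of the 6 bins from 18780001 to 18900000, and H3K27ac 7.96 to 37.0%. In the bin just below, from 18760001 to 18780000, H3K27ac covered 61.5% and H3K4me1 54.9%. In the bin from 18900001 to 18920000, which reaches the start of Meis1, H3K27ac covered 62.0% and H3K4me1 40.9%. H3K27ac exceeded H3K4me1 in these 2 bins and in none of the other 13 bins of the window.

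**Figure D1:**
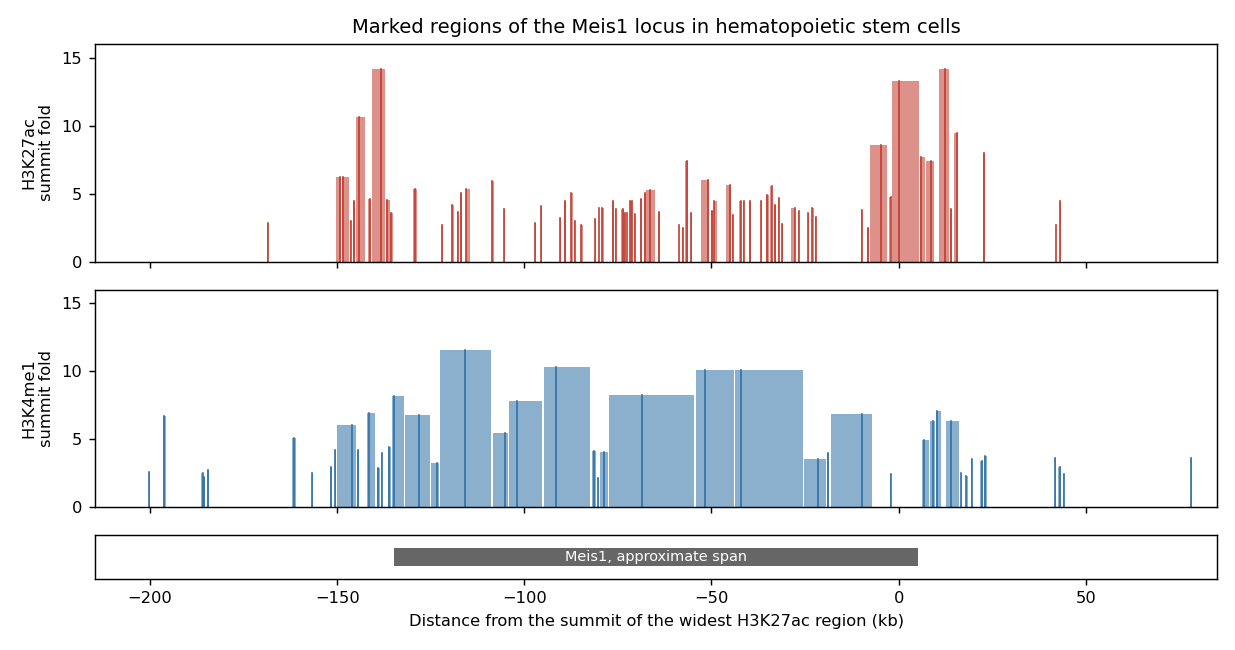
Regions of H3K27ac (red) and H3K4me1 (blue) in the 300 kb window, by distance in kb from the summit of the widest H3K27ac region. Each box spans a region at the height of its summit fold over local background, a darker line marks the summit, and the grey bar is the approximate span of Meis1. The 4 H3K27ac summits of 10-fold or more lie at the ends of the gene, and the 4 H3K4me1 summits of 10-fold or more lie within it.

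**Figure D2:**
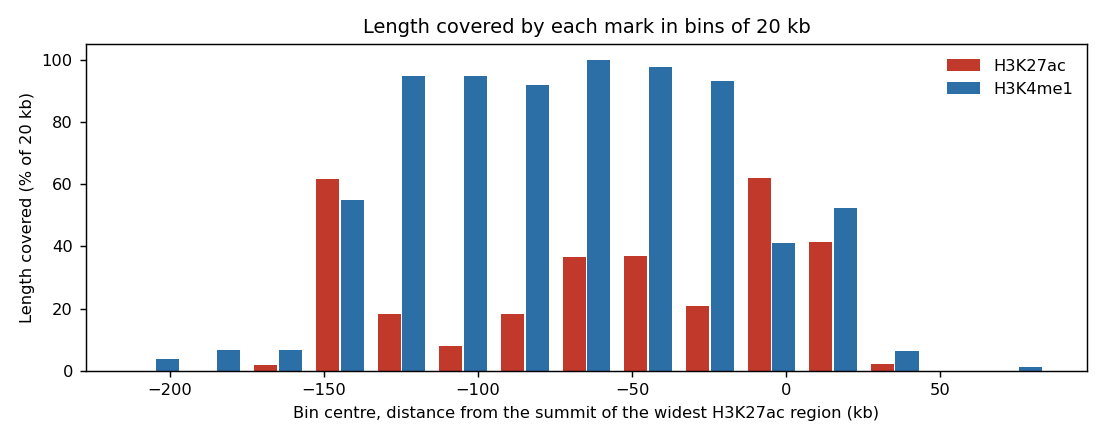
Percentage of each 20 kb bin covered by H3K27ac (red) and H3K4me1 (blue), by distance of the bin centre from the summit of the widest H3K27ac region in kb. H3K4me1 covers 91.9 to 100% of the 6 bins in the body of Meis1, and H3K27ac covers most in the bins at the ends, with 61.5% and 62.0%.

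The members' median summits were close to those of the whole lists, and the H3K4me1 members were longer at the upper quartile of width, 3475 bp against 1360 bp over all regions. Fold is the authors' value for a summit over its local background, and reads at a summit were recovered from it. H3K27ac members ranged from 2.47-fold to 14.2-fold with a median of 4.43-fold (quartiles 3.55 and 5.08), against 3.86-fold (quartiles 3.25 and 5.32) over all H3K27ac regions. H3K4me1 members ranged from 2.18-fold to 11.6-fold with a median of 4.05-fold (quartiles 2.95 and 6.74), against 4.12-fold over all H3K4me1 regions. Both ratios of medians, 1.15 for H3K27ac and 0.98 for H3K4me1, changed side of 1 when weak regions were left out of both lists. At a −log10 q of at least 5 they were 0.89 and 1.14. The median H3K27ac member was 418 bp wide and the median H3K4me1 member 769 bp, against 355 and 687 bp over all regions.

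H3K4me1 covered 149.0 kb of the window. Of 8028 autosomal windows of the same length, 8 held at least as much, this one included, and the median held 11.6 kb. H3K27ac covered 61.5 kb, as much as 19 of 8044 windows at least, with a median of 2.89 kb. The number of H3K4me1 members, 45, was reached by 972 windows, so the window stood out in the length of its H3K4me1 regions more than in their number. Windows with at least the 76 H3K27ac members numbered 27. The grid of windows was aligned to this one, which holds the whole Meis1 domain, while other domains could be cut by it. These places among windows therefore favour the Meis1 locus.

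At the start of Meis1 lay the widest H3K27ac region of the genome that touched no H3K4me1. It ran from 18913161 to 18920334 (7174 bp), covered the approximate upper end of the gene and had its summit at 18914806, with 13.3-fold enrichment and 44 reads (exact Poisson 95% interval 32.0 to 59.1). Of the 26404 H3K27ac regions without H3K4me1 the median width was 252 bp, and the second widest measured 4976 bp. Among all 93413 H3K27ac regions 47 were at least as wide, itself included. In fold it was less extreme, with 221 of the regions without H3K4me1 reaching at least 13.3-fold.

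H3K4me1 was not far from this region on either side. A short H3K4me1 region of 383 bp (18912486 to 18912868, 2.42-fold, 15 reads) ended 292 bp below it, and the next, from 18921090 to 18922893 (4.93-fold, 25 reads), began 755 bp above it. The stretch of 8.22 kb between them was 93.1% acetylated. Its 7656 acetylated bp were the most in any of the 155006 stretches between neighbouring H3K4me1 regions, ahead of 7303 bp. On the side of the gene body the next stretch without H3K4me1, from 18907807 to 18912485, was 85.1% acetylated by the H3K27ac region from 18907294 to 18911607 (4314 bp, 8.57-fold, 28 reads), the second widest of the locus. From 18907807 to 18921089, therefore, H3K4me1 was present only in the 383 bp region. In the H3K4me1 library no summit under 10 reads was called anywhere, so weaker H3K4me1 in these stretches was not detectable at this depth.

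Above the start, H3K27ac and H3K4me1 overlapped over most of their length. The H3K27ac region from 18920608 to 18921844 had 7.68-fold enrichment and its summit lay 297 bp outside H3K4me1. That from 18922044 to 18924319 had 7.39-fold enrichment with its summit inside H3K4me1. The region from 18925701 to 18928227 (2527 bp) shared the highest fold of the locus, 14.2-fold with 47 reads (interval 34.5 to 62.5), and its summit at 18927274 fell into a stretch of 1302 bp without H3K4me1 that was acetylated throughout. The H3K4me1 regions on either side of that stretch, from 18924865 to 18926255 and from 18927558 to 18931032, had 7.09-fold and 6.32-fold summits. The last strong regions were at 18929515 to 18930667 (9.46-fold, wholly inside H3K4me1) and at 18937470 to 18937945 (7.98-fold), where the domain ended. Of the 6 H3K27ac summits of the domain above 18.92 Mb, 5 reached 6-fold.

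The lower end of Meis1 carried a second cluster of strong acetylation, 138.4 kb from the first between the strongest summit here and that of the widest region. It held 9 H3K27ac regions from 18764438 to 18779738, which covered 79.0% of the domain below 18.78 Mb, and H3K4me1 covered 65.8%. The strongest, from 18774225 to 18777484 (3260 bp), had 14.2-fold enrichment and 47 reads, the same as the region above the start, and met 3 separate H3K4me1 regions. Its summit at 18776455 lay in a break of 288 bp between H3K4me1 regions and only 23 bp from the upper of them. The next, from 18769958 to 18772190, had 10.6-fold enrichment with 35 reads (interval 24.4 to 48.7). Its summit at 18770549 was inside H3K4me1, near the edge of a region that ended at 18770581, and the 2.21 kb that followed were free of H3K4me1 and 73.0% acetylated. The first 2 regions of the cluster each had 6.21-fold enrichment and 20 reads, and the remaining 5 of the 9 were below 5-fold. The count intervals of the strongest summits at both ends overlapped, so their order in fold is not separated from counting error.

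**Figure D3:**
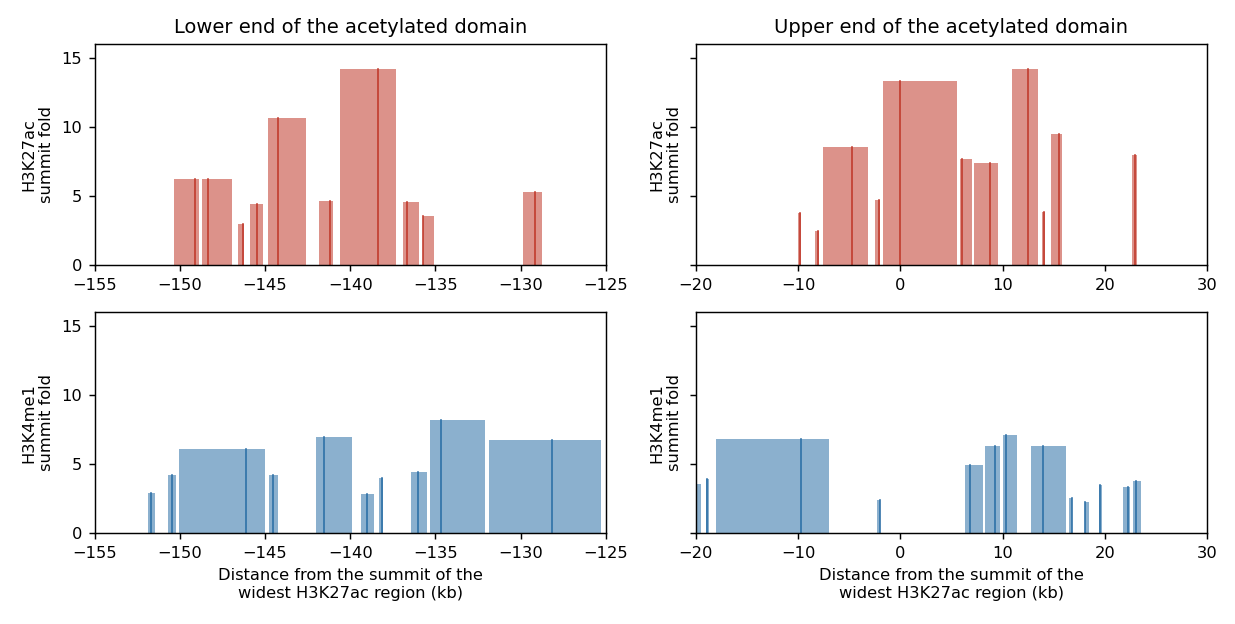
The lower (left) and upper (right) ends of the acetylated domain, with H3K27ac regions in red and H3K4me1 regions in blue, boxes at the height of the summit fold and darker lines at the summits, by distance in kb from the summit of the widest H3K27ac region. At the upper end the 7174 bp H3K27ac region faces a stretch with no H3K4me1, and at the lower end the 14.2-fold region spans a row of short H3K4me1 regions.

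Between the ends, in the body of Meis1, acetylation was frequent, in short regions with few strong summits. The span of the gene held 58 H3K27ac summits with a median of 4.02-fold and a median width of 409 bp, both slightly above the 3.86-fold and 355 bp of all H3K27ac regions, and 3 of them reached 6-fold, those of the 2 wide regions at the start of the gene and of the region from 18857815 to 18858515 (7.39-fold, 24 reads). Over the whole window 12 of 76 H3K27ac members reached 6-fold (15.8%, exact 95% interval 8.43 to 26.0%), against 18.7% of all H3K27ac regions, and 4 reached 10-fold (5.26%, interval 1.45 to 12.9%), against 7.77%. Both list values lie inside the intervals of the members. In width, 8 H3K27ac members were 2 kb or wider (10.5%, interval 4.66 to 19.7%), against 4.04%. The locus was chosen for its acetylated length, which favours wide H3K27ac regions, so this contrast is a description. Low counts set the grain of these values: 10 members had the same 14 reads at the genome-wide background, which gives 4.43-fold.

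The H3K4me1 blocks of the gene body were among the longest in the genome. Of the 45 H3K4me1 members 6 were 10 kb or wider (13.3%, interval 5.05 to 26.8%), against 0.295% of all H3K4me1 regions, and together they spanned 88.1 kb, or 50.8% of the domain. The widest ran from 18837457 to 18860264, 22.8 kb with an 8.24-fold summit of 42 reads, and 25 regions in the genome, itself included, were at least as wide. The second ran from 18871047 to 18889174 (18.1 kb, 10.1-fold), and the third from 18792341 to 18805946 (13.6 kb), which had the strongest H3K4me1 summit of the locus at 11.6-fold with 54 reads (interval 40.6 to 70.5). The others were 12.3 kb (18820121 to 18832376, 10.3-fold), 11044 bp (18896763 to 18907806, 6.84-fold) and 10.3 kb (18860572 to 18870847, 10.1-fold). H3K4me1 summits of 10-fold or more numbered 4 of 45 (8.89%, interval 2.48 to 21.2%), against 1.12% of all, and each belonged to one of these blocks. Other large acetylated domains shared these traits. The other 9 of the 10 domains of largest acetylated length held 0 to 9 H3K4me1 regions of 10 kb or more each. Their highest H3K4me1 summits were 9.69-fold to 12.6-fold.

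Short H3K27ac regions were nested in these blocks. The 6 blocks held 44 H3K27ac summits with a median of 4.14-fold and a highest of 7.39-fold, and the widest H3K27ac region among them was 2271 bp. The 22.8 kb block met 16 H3K27ac regions and was 35.7% acetylated. The 18.1 kb block met 11 and was 29.5% acetylated, and the 10.3 kb block met 5 wider ones and was 49.2% acetylated. The 11044 bp block that ended beside the start of Meis1 met 3 and was 11.1% acetylated, the lowest of the 6. Over the 6 blocks 27.5% of the length was acetylated, against 46.5% over all 458 H3K4me1 regions of 10 kb or more. Blocks met a median of 7 H3K27ac regions over all 458. Neighbouring H3K27ac regions of the domain were a median of 698 bp apart, and the longest break, 11997 bp, began at 18892776 and reached into the block before the start of the gene.

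Nearly every acetylated region of the locus met H3K4me1, and the few summits outside H3K4me1 included 3 of the 4 that reached 10-fold. That share is near the 74.4% of all H3K27ac regions of 10-fold or more. Of the 76 H3K27ac members 74 shared at least 1 bp with H3K4me1 (97.4%, interval 90.8 to 99.7%), against 71.7% of all H3K27ac regions. The other 2 were the 7174 bp region at the start of Meis1 and a 2.87-fold region outside the domain at 18746040 to 18746382. The H3K27ac summit itself lay outside H3K4me1 in 9 members (11.8%, interval 5.56 to 21.3%), against 41.8% of all. These 9 had a median of 7.68-fold (2.87-fold to 14.2-fold), and the 67 with the summit inside had a median of 4.14-fold (2.47-fold to 10.6-fold), so the ranges overlapped. Over all H3K27ac regions the order of the medians was the other way, with 3.69-fold outside and 4.14-fold inside. The upper quartiles there were equal, at 5.32-fold, and the highest fold was 43.4 outside and 31.9 inside. The members' ratio of 1.86 was 2.47 with only H3K27ac regions whose local background stood at the genome-wide level. It was 1.10 when H3K4me1 regions with a higher local background were dropped as well, which also moves summits of those regions to the outside, and 1.46 to 1.96 in the other settings tried.

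**Figure D4:**
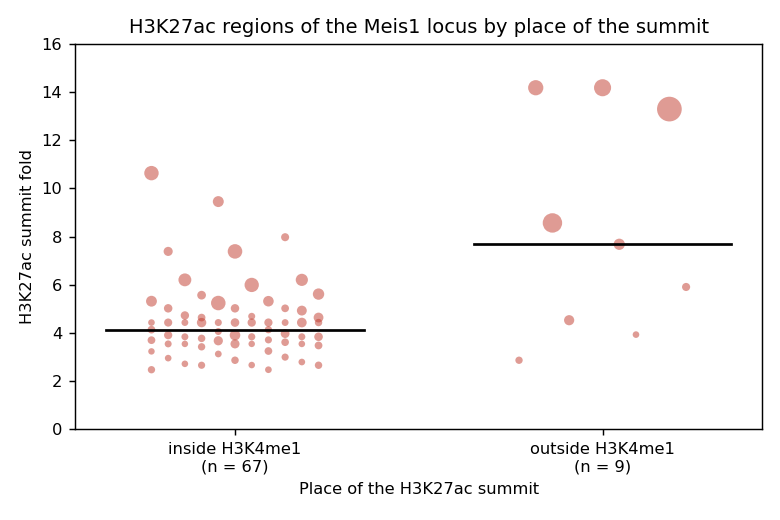
Summit fold of the 76 H3K27ac members by whether the summit lay inside (n = 67) or outside (n = 9) an H3K4me1 region. Each point is 1 region, its area grows with the width of the region, points are spread sideways for view, and black lines are medians, 4.14-fold and 7.68-fold.

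Of the 4 H3K27ac members of 10-fold or more, 3 had the summit outside H3K4me1, a share of 75% with an interval from 19.4 to 99.4%. Over all H3K27ac regions of 10-fold or more it was 74.4%. That value lies inside the interval of the members, which 4 summits leave wide. Of the 7 stretches of 1 kb or more without H3K4me1 inside the domain, 5 were acetylated over more than 70% of their length, against 3.78% of such stretches in the genome, a contrast that choosing an acetylated domain sets in advance. In the other 9 of the 10 domains of largest acetylated length, 9 of 180 such stretches passed the same limit (5%), and the share in a single domain ranged from 0 to 28.6%. The 5 in the Meis1 domain were 73.0 to 100% acetylated, so the limit lies just below the lowest of them. Other limits were not tried. The other 2, of 1.27 and 2.07 kb, lay between 18931639 and 18936604 and held no H3K27ac. All 7 lay at the ends of the domain and none between 18779284 and 18907806, where the longest stretch without H3K4me1 was 627 bp.

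H3K4me1 without H3K27ac was short and mostly weak at the locus. Of the 45 H3K4me1 members 29 met H3K27ac (64.4%, interval 48.8 to 78.1%), against 33.6% of all H3K4me1 regions. The locus was chosen for its acetylation, which favours a higher share in advance, so this contrast is a description. The 16 without H3K27ac had a median of 2.84-fold and 352 bp, and the 29 with it 5.48-fold and 2139 bp. All 8 H3K4me1 members below the domain lacked H3K27ac, and so did 2 of 4 above it and 6 of 33 in it. The domain was joined from H3K27ac regions, so few of them lie outside it to be met. The strongest without H3K27ac lay at 18718402 to 18718966, with 6.74-fold enrichment and 31 reads. The next was at 18752646 to 18753756, 1111 bp with 5.06-fold enrichment. In the domain the widest was 2004 bp, at 18789936 to 18791939 with 3.26-fold enrichment. The shares were not adjusted for width, and a longer region has more room to meet another.

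H3K27ac was sparse on either side of the domain. H3K27ac regions joined over gaps of up to 12500 bp gave 1 domain of 173.5 kb, from 18764438 to 18937945, with 73 H3K27ac regions over 60.8 kb. Below it the nearest H3K27ac was the single region at 18746040, 18.1 kb away, and above it a pair of regions from 18956731 to 18958098, 18.8 kb away, of 2.67-fold and 4.43-fold. Joining over gaps of up to 12500 bp sets a longer gap on either side in advance. Beyond these neighbouring regions, H3K27ac was missing for 88.7 kb below and 198.9 kb above. Such distances were not compared with those around other domains. The first H3K4me1 member of the window was at 18714535 to 18714749 (2.57-fold) and the last at 18992921 to 18993180 (3.60-fold), and just outside the window the nearest H3K4me1 was 49.3 kb below and 9.83 kb above these.

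Compared with the other 9 of the 10 domains of largest acetylated length, the Meis1 domain had less of its acetylation inside H3K4me1. H3K4me1 covered 82.4% of its span, the third highest of the 10 (the others ranged from 43.8 to 89.3%), but 70.7% of its acetylated length lay inside H3K4me1, the lowest of the 10 (81.3 to 94.5% in the others). Without the 7174 bp region the share was 80.2%, still below the other 9. It had 6 H3K4me1 regions of 10 kb or more, against 0 to 9, and 4 H3K27ac summits of 10-fold or more, against 1 to 9. Of these 4 summits 3 lay outside H3K4me1. In the others the values ran from 1 of 9 to 1 of 1, with 3 of 7 in the domain on chromosome 17 from 84478949 to 84621078. Its highest H3K27ac summit, 14.2-fold, stood seventh of the 10 (10.9-fold to 26.3-fold in the others). The place of the domain depended on the joining, since with gaps of up to 5 kb the ends separated from the gene body, and the largest piece, from 18817667 to 18892776, ranked 72nd with 99.1% of its acetylated length inside H3K4me1, above the 80.1 to 98.5% of the 10 largest domains of that joining. With gaps of up to 20 kb the share was 70.5%, within the 64.2 to 93.9% of the 10 largest, so being lowest held only for some joinings.

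**Figure D5:**
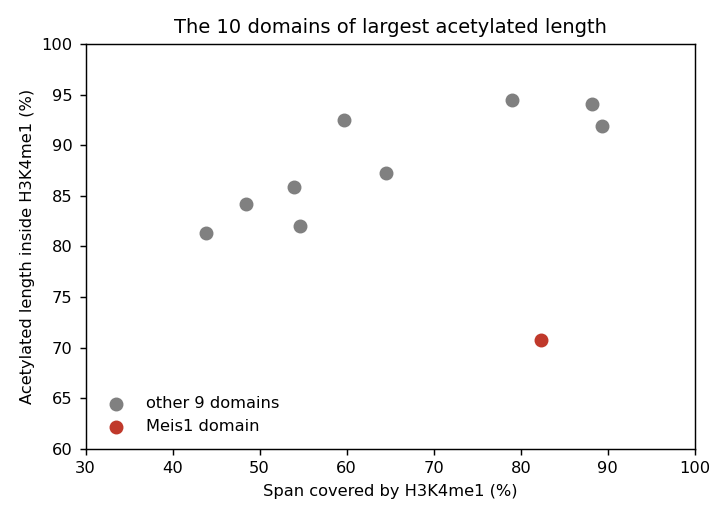
The 10 H3K27ac domains of largest acetylated length, each a point, by the percentage of the span covered by H3K4me1 and the percentage of the acetylated length that lies inside H3K4me1; both axes start above 0. The Meis1 domain (red) is at 82.4% and 70.7%, and the other 9 (grey) lie between 81.3 and 94.5% on the vertical axis.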

How the data were processed

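The deposited files were 1 peak list for H3K27ac and 1 for H3K4me1. Per the submitters' processing notes, the tools were MACS2 2.0.10.20131216 and Bowtie2 2.0.6 and the build mm9. How reads were filtered, which control was used and the caller's options are not given in the sources used here. In these lists the deposited fold is the ratio of pileup at the summit to local background. The deposited −log10 q and −log10 p belong to the summit, and the deposited score, not used here, is 10 times the −log10 q. The lowest −log10 q was 1.30 in H3K27ac and 1.31 in H3K4me1. Positions are printed counting from 1.

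Reads at a summit were recovered from fold and −log10 p, taking fold as (reads + 1)/(background + 1) and p as the Poisson probability of more reads. Whole reads gave the deposited −log10 p within 0.001 at all 93413 and all 155027 summits. The weakest summits held 8 and 10 reads, and the median 13 and 20. The genome-wide background was 2.38 and 3.75 reads, and a local background over 1.05 times that was called raised. Read intervals are exact Poisson and shares have exact Clopper-Pearson 95% intervals. They cover counting error only, and neighbouring regions are not independent.

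Regions met when they shared at least 1 bp. Windows of 300 kb on the same grid, from the first to the last region of each autosome, gave the comparison for the locus. The members, named regions and settings were chosen with earlier results of these data known. Named regions were the 5 strongest and 5 widest per mark, those without the other mark, the first and last of the window, the H3K4me1 regions meeting most H3K27ac regions and those nearest the ends of Meis1. Others named were chosen after their values were seen. Interval functions and read recovery were tested on simulated data made with the same formulas. Computations used Python 3.11.15 with scipy 1.17.1, pandas 2.3.3 and numpy 2.4.6, and figures matplotlib 3.10.9.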

Additional observations from a re-analysis of the deposited data

How the results depend on the processing

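Of 55 alternative values 18 stayed close to the reported value, 32 moved and 5 changed side of 1. A share moved when it left its counting interval, a count by a factor over 1.5, a ratio by 0.05, a percentage of length by 5 points and a rank by any step. The settings for the share of length inside H3K4me1, the fold outside and inside H3K4me1 and the order by width were added after seeing the data. With limits of 5 and 10 on −log10 q, H3K27ac members numbered 40 and 14. H3K4me1 members numbered 16 at 10. Of H3K27ac members 71.4% met H3K4me1 at 10, and 90.8% with 50% of the shorter one shared. Of H3K4me1 members 89.3% met H3K27ac with equal numbers of regions and 81.8% within the domain. The ratio of median H3K27ac fold to all regions was 0.89 at 5 and 0.88 at 10, and that of H3K4me1 1.14 at 5, 1.11 at 10 and 1.07 within the domain. The domain shrank to its upper end, 30.7 kb, at both limits on q, where H3K4me1 covered 30.5% and 22.4% of it, its rank was 90 and 28, and 30.8% and 21.5% of its acetylated length lay inside H3K4me1, below the 10 largest domains of those settings (78.2 to 98.5% and 61.0 to 98.4%). With gaps of up to 5 kb H3K4me1 covered 96.3%, the rank was 72 and 99.1% of the acetylated length lay inside H3K4me1, above the 10 largest (80.1 to 98.5%). With gaps of up to 20 kb coverage was 69.0%, the rank 17 and the share inside H3K4me1 70.5%, within the range of the 10 largest (64.2 to 93.9%). The rank was 17 by fold times width and 14 by span. The share inside H3K4me1 was 80.2% without the widest H3K27ac member. It was 85.0% with only H3K27ac regions at the genome-wide background and 46.8% with that filter on both lists. With either filter the upper end split from the domain, so both filtered shares leave out the widest member and the regions around it. The ratio of fold outside to inside H3K4me1 was 1.53 at 5, 1.71 at 10, 1.46 with equal numbers, 1.96 within the domain, 1.64 without the widest member, 2.47 with only H3K27ac regions at the genome-wide background and 1.10 with that filter on both lists. Of H3K27ac regions lacking H3K4me1, the widest member was the first by width at both limits on q, with equal numbers and with the background filter on H3K27ac alone, 3 were at least as wide with 50% shared and 4 with the background filter on both lists. With a distance of up to 1 kb it counted as meeting H3K4me1 and had no order. Apart from the construction of these settings, the cause of the moves was not tested. Depth limits the H3K4me1-free stretches, since no summit under 10 reads was called. No paired analysis was possible because there was 1 library per mark.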

Other observations

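A local background above the genome-wide level was more frequent at the Meis1 locus than over the lists, at 29 of 76 H3K27ac members (38.2% against 26.2%) and 26 of 45 H3K4me1 members (57.8% against 36.8%), with a highest value of 2.38 and 2.06 times the genome-wide level. These members had lower folds, with medians of 3.70 against 4.43 for H3K27ac and 3.53 against 5.48 for H3K4me1. Fold is a ratio to the local background, so at equal reads a raised background lowers it by definition. The background stood at the genome-wide level at the 4 H3K27ac and the 4 H3K4me1 summits of 10-fold or more. Its part in the folds of the gene body was not tested.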
